A study of Macaca mulatta with 30 samples.

Results

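Cortical area 32 is a medial prefrontal field, and its transcriptome was measured by RNA sequencing in 30 male rhesus macaques (Macaca mulatta) that had been drinking ethanol for over 12 months, with 1 library from each animal. The question taken up here was whether the 13 animals of the heavier drinking categories differed from the 17 of the lighter ones, all 30 libraries of the series being used. Heavier drinkers were the 6 very heavy (VHD) and the 7 heavy (HD) drinkers, and lighter drinkers were the 7 binge (BD) and the 10 low (LD) drinkers. A VHD animal took in more than 3 g/kg of ethanol a day on average and passed 4 g/kg on at least 10% of its open-access days. An HD animal reached 3 g/kg on at least 20% of days. A BD animal reached 2 g/kg on at least 55% of days and had a blood ethanol concentration of 80 mg/dl or more at least yearly, and an LD animal met none of these definitions.

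The animals shared 1 drinking history: none had been used in an experiment before, all were induced to drink 4% ethanol, and all then had it available for 22 h a day with meals and water. Lighter drinkers were therefore not abstinent, and no ethanol-free animal is among the libraries analysed here. The tissue was taken at the hour at which a session would usually begin, from brains perfused with artificial cerebrospinal fluid, and was dissected as a whole block of cortex. In such bulk tissue, fewer cells of a type and less RNA per cell cannot be told apart. The categories were unevenly spread over the 4 cohorts. Cohort 5 gave 7 heavier and 1 lighter animal, cohort 4 gave 1 heavier and 8 lighter, cohort 7a gave 4 of each, and cohort 7b gave 1 heavier and 4 lighter. Cohort 4 was on average 9.98 years old at the end of drinking, against 7.15 in cohort 5, 5.7 in cohort 7a and 7.18 in cohort 7b. Cohort was therefore a term in the model behind every difference below unless stated otherwise.

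The prefrontal cortex weighs actions against their outcomes, and its medial fields project to the amygdala, striatum and brainstem. Ethanol enters the brain freely. It enhances currents through several GABA-A and glycine receptors, inhibits NMDA-type glutamate receptors, and is oxidised to acetaldehyde and then acetate. Long drinking is known to bring adaptations in receptors, in stress peptides, in glia and in chromatin, and lists of genes for these processes and for the cell types of cortex were followed.

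The libraries of heavier drinkers held 5.51 to 13.5 M reads (M, mega) in the gene table (mean 9.66 ± 2.86, SD, n = 13) and those of lighter drinkers 4.39 to 13.985 M reads (8.69 ± 3.05, n = 17). The difference of 0.97 M reads was within that spread (two-sided permutation test with 100000 resamples, p = 0.375). All libraries carried the markers of cortical tissue: the presynaptic gene SNAP25 stood at 13237 normalized reads or more and the astrocyte gene GFAP at 9514 or more in every library. Of the 15 listed blood cell genes, 10 were in the table, and together they summed to 0.86 to 17.6 normalized reads in heavier and 1.80 to 25.6 in lighter drinkers. Library numbers were not balanced. Of the 8 libraries with the lowest numbers, 6 came from heavier and 2 from lighter drinkers, and what a number records (a preparation order, a lane) is not given in the sources used here.

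At the level of single genes, heavier and lighter drinkers were not separated. Of 12935 tested genes, limma called 0 at a Benjamini-Hochberg adjusted p under 0.05 (0%), and the smallest adjusted p was 0.390. No gene had non-overlapping values in the 13 heavier and 17 lighter drinkers. At an unadjusted p under 0.05 there were 1556 genes, or 12.0% of those tested, 801 of them higher (6.19%) and 755 lower (5.84%) in heavier drinkers. EdgeR on recovered reads called 0 genes and 1552 at an unadjusted p under 0.05, and DESeq2 called 0 and 1633. The smallest adjusted p was 0.399 in edgeR and 0.0572, close to the cut, in DESeq2. Differences were small: the median size on the log2 scale was 0.18 over the 801 genes and 0.26 over the 755 genes. Over all tested genes the median size was 0.0985, and the median of the signed differences was −0.0041. In a simulation of heavier minus lighter drinkers on 12935 genes, 50 genes were changed at each fold size. The test called 40% of changes of 0.32 on the log2 scale, 84% of 0.58, 96% of 1-unit and 100% of 2-unit changes. These shares describe the simulation only, in which 165 genes were called. The Benjamini-Hochberg cut on the unadjusted p is looser when more genes are called, so the shares need not hold with fewer changed genes. Whether they hold with the differences between cohorts and library numbers in these animals was not tested. The median sizes of 0.18 and 0.26 above are below the smallest change simulated.

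The 0 calls did not hold under each alternative. When libraries were weighted by a quality estimated from these same values, limma called 130 genes (1.01%), 77 higher and 53 lower. In that fit 24.8% of all tested genes were at an unadjusted p under 0.05, against 12.0% without weights. When the cohort term was dropped limma called 5 (0.0387%), with 9.54% of genes higher and 8.71% lower at an unadjusted p under 0.05. Genes on the higher and lower side of the fit with cohort also differed in length and level. The 801 higher genes had a median summed exon length of 3561 bases and a median level of 689 normalized reads, the 755 lower genes had 2959 bases and 280 reads, and all tested genes had 2780 bases and 268 reads. When libraries were also grouped by number, 8 to a set, the lengths were close. The 286 higher genes then had 2949 bases and 392 reads, and the 303 lower genes 2961 bases and 177.5 reads. The part of transcript length and level in the result was not tested.

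The 12 lower genes with the smallest p are described first. TLN1 encodes talin, which couples integrins to actin, and it had 1416 to 1850.2 normalized reads (median 1658) in heavier drinkers, against 1640.5 to 2500.1 (median 1939.5) in lighter drinkers. All 13 heavier drinkers lay below the lighter median, although the groups overlapped, and the difference was −0.28 ± 0.06 (log2, limma estimate ± SE; adjusted p = 0.390). TRIP6, a LIM protein of focal adhesions, had 42.8 to 108 normalized reads (median 84.5) in heavier drinkers, against 68.2 to 135 (median 103) in lighter drinkers, a difference of −0.57 ± 0.14. AFAP1L1, which binds actin filaments, had a median of 212 normalized reads in heavier and 286 in lighter drinkers (−0.37 ± 0.10). For both of these genes 12 of 13 heavier drinkers were below the lighter median. CCDC80, a secreted matrix protein gene, stood at −0.42 ± 0.11 and the kinesin motor gene KIF1C at −0.22 ± 0.06, again with 12 of 13 below.

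GLIS3, a zinc finger transcription factor, had 85.6 to 129.9 normalized reads (median 115) in heavier drinkers, against 100.3 to 193 (median 149.7) in lighter drinkers. Every heavier drinker was below the lighter median for GLIS3, and the difference was −0.43 ± 0.11. PADI2, which converts arginine to citrulline in proteins such as myelin basic protein, had 903 to 1449 normalized reads (median 1097) in heavier drinkers, against 966 to 1651 (median 1454) in lighter drinkers. All 13 were below the lighter median for PADI2 too (−0.31 ± 0.08). CTDSP1, a phosphatase that acts with the REST repressor on neuronal genes, had a median of 154 normalized reads in heavier and 205 in lighter drinkers (−0.45 ± 0.11, 11 of 13 below). OGDH, a subunit of the 2-oxoglutarate dehydrogenase complex of the citric acid cycle, was closely spaced at 1784 to 2350.5 normalized reads (median 1902) in heavier drinkers, against 1874 to 2392 (median 2159) in lighter drinkers. Its difference was −0.21 ± 0.05, with 11 of 13 heavier drinkers below the lighter median.

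Genes with few reads had wider differences. TNFRSF14, a receptor of the tumour necrosis factor family, had 5.90 to 50.7 normalized reads (median 26.5) in heavier drinkers, against 22.0 to 122 (median 51.9) in lighter drinkers, a difference of −1.22 ± 0.29 with all 13 below the lighter median. A4GALT, which makes the glycolipid Gb3, had 4.43 to 29.9 normalized reads (median 12.3) in heavier drinkers, against 12.3 to 31.7 (median 20.6) in lighter drinkers (−0.89 ± 0.24). PLA2G16, a phospholipase with more reads, had 177 to 311 normalized reads (median 238) in heavier drinkers, against 199 to 324 (median 264) in lighter drinkers (−0.32 ± 0.07). None of these 12 genes passed the test, each with an adjusted p of 0.390.

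**Figure D1:**
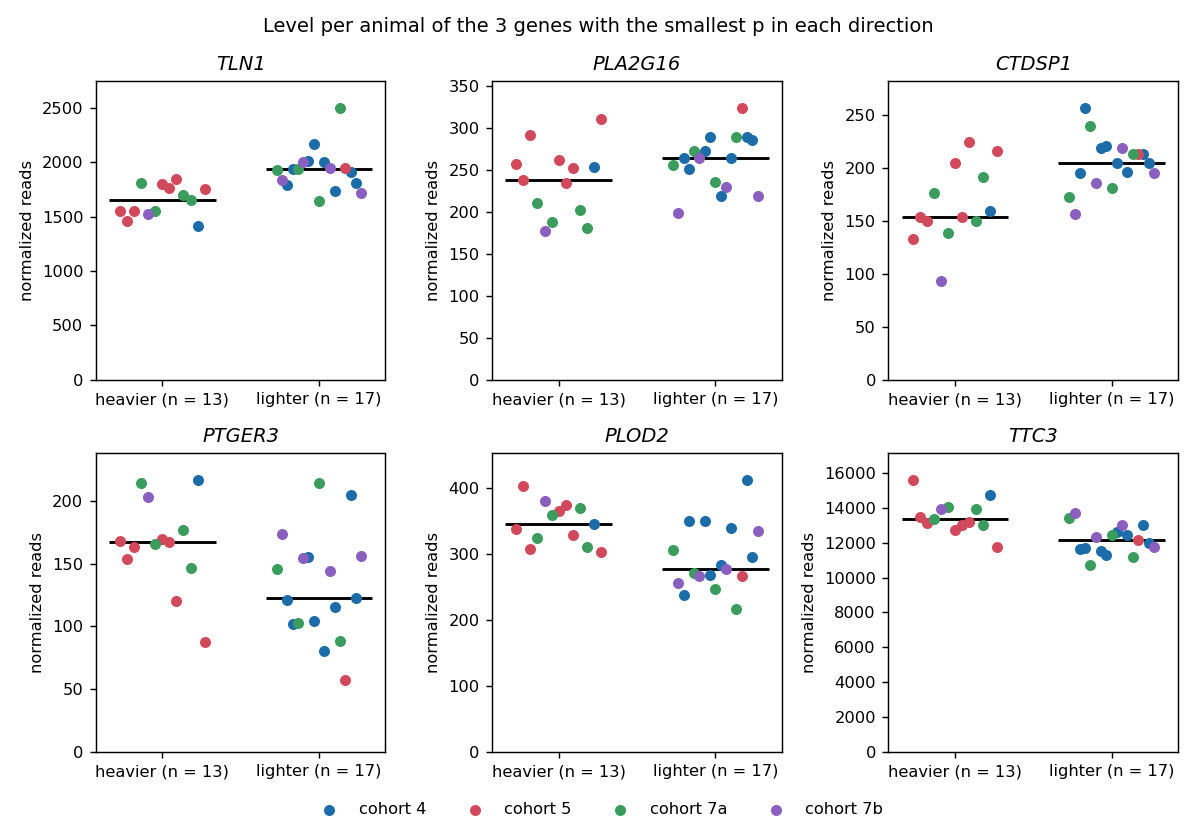
Normalized reads per animal (y axis, linear) in heavier (left) and lighter (right) drinkers for the 3 genes with the smallest p in each direction; points are animals coloured by cohort and bars are medians. All 13 heavier drinkers lie below the lighter median for TLN1 and above it for PLOD2, and the groups overlap for every gene shown.

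Among the genes higher in heavier drinkers, PTGER3, a receptor for prostaglandin E2, had 87.4 to 217 normalized reads (median 167) in heavier drinkers, against 57.0 to 215 (median 123) in lighter drinkers. The difference was 0.67 ± 0.17, and 11 of 13 heavier drinkers were above the lighter median. PLOD2, which hydroxylates lysines in collagen, had 303 to 402 normalized reads (median 345) in heavier drinkers, against 216 to 411 (median 276) in lighter drinkers. All 13 heavier drinkers were above the lighter median for PLOD2 (0.35 ± 0.09), yet 1 lighter animal had the top value. PPP2R2B, a brain regulatory subunit of phosphatase 2A, had 1294 to 1631 normalized reads (median 1453) in heavier drinkers, against 1075 to 1629.6 (median 1277) in lighter drinkers. All 13 heavier drinkers were above the lighter median for PPP2R2B as well (0.20 ± 0.06), and TTC3, a ubiquitin ligase, had 12 above (0.19 ± 0.05; a median of 13360 normalized reads in heavier and 12184 in lighter drinkers).

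AP3S1, of the AP-3 coat that sorts cargo to lysosomes, had 416 to 630.3 normalized reads (median 522) in heavier drinkers, against 351 to 569 (median 418) in lighter drinkers (0.32 ± 0.09). VPS26A, of the retromer that recovers cargo from endosomes, stood at 0.23 ± 0.06, and ERGIC2, of the traffic between endoplasmic reticulum and Golgi, at 0.27 ± 0.07. For these 3 genes 12 of 13 heavier drinkers were above the lighter median. PGAP1, which removes an acyl chain from GPI anchors, stood at 0.28 ± 0.08, PKIA, an inhibitor of protein kinase A, at 0.27 ± 0.07, and HECTD2, a ubiquitin ligase, at 0.27 ± 0.07. C12orf56 had 9.69 to 31.0 normalized reads (median 16.1) in heavier drinkers, against 6.87 to 24.8 (median 16.3) in lighter drinkers: its difference of 0.70 ± 0.19 came from the model with cohort, as only 6 of 13 heavier drinkers were above the lighter median. Each of these genes had an adjusted p of 0.390.

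All 24 genes, the 12 with the smallest p in each direction, had the same sign in each of the 4 cohorts taken alone, which is a description of genes chosen for their pooled difference. OGDH ranged only from −0.19 to −0.23 over the cohorts, and TNFRSF14 from −0.48 in cohort 7a to −2.72 in cohort 7b. Cohort 7a holds 4 animals on each side, and there TLN1 was at −0.24, GLIS3 at −0.30, and PLOD2 at 0.40. A test of whether the difference varied between cohorts called 0 of 12935 genes (0%; smallest adjusted p 0.165), with 303 at an unadjusted p under 0.05 (2.34%). Fitted on cohort 7a alone, limma called 0 genes and 410 at an unadjusted p under 0.05.

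**Figure D2:**
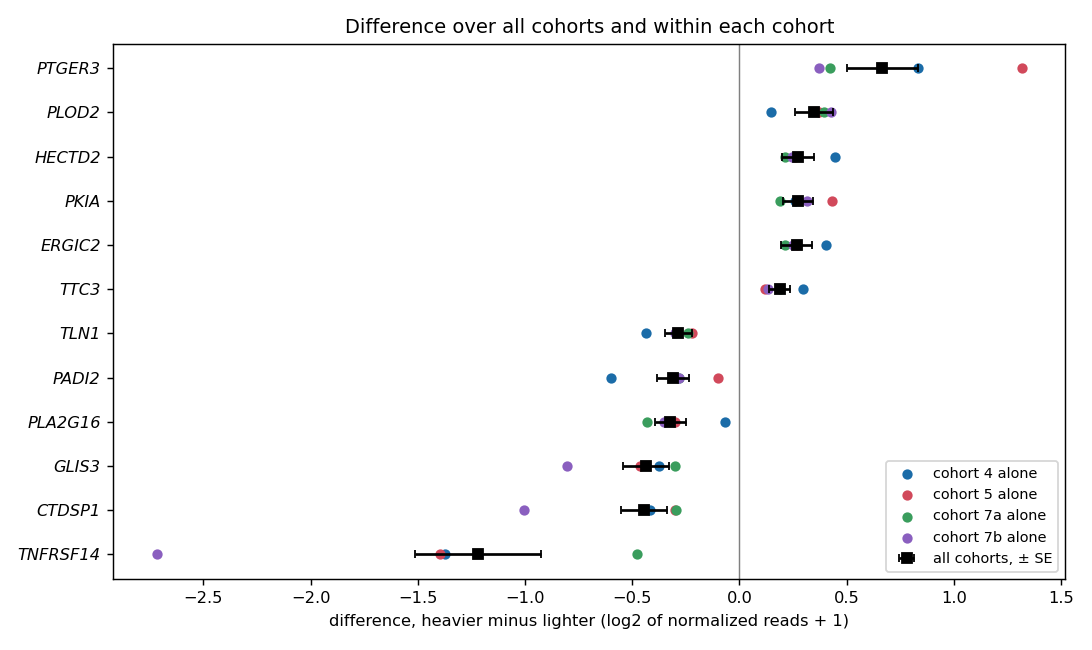
Difference between heavier and lighter drinkers (x axis, log2 of normalized reads plus 1) for the 6 genes with the smallest p in each direction; squares are the estimates over all cohorts with SE bars and dots are the cohorts alone. Every dot lies on the side of its square, with the widest scatter for TNFRSF14.

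Exons were deposited as separate values from the same libraries, so they are no independent replicate of the gene values. Of 106210 exons of tested genes, 72.9% had the sign of their gene. In TLN1 54 of 57 exons were lower, in OGDH 22 of 22, in PADI2 15 of 16 and in AFAP1L1 16 of 16. In PGAP1 27 of 27 were higher, in PLOD2 18 of 18 and in TTC3 42 of 45, whereas for GLIS3 only 2 of 10 exons and for TNFRSF14 only 1 of 8 passed the filter on low values.

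The number of genes at an unadjusted p under 0.05 varied with the heavier category used. VHD animals against the 17 lighter drinkers gave 480 such genes (3.71%; 1.96% higher and 1.75% lower), and HD animals against the same lighter drinkers gave 1633 (12.6%; 5.98% higher and 6.64% lower), with 0 called in both. These comparisons share the lighter animals, but not evenly. VHD animals came only from cohorts 5 (4 animals) and 7a (2), while HD animals came from all 4 cohorts. With cohort in the model, VHD was in effect set against 1 lighter animal of cohort 5 and 4 of cohort 7a, here and below. The part of this layout in the counts was not tested. TLN1 was at −0.19 for VHD and −0.32 for HD, GLIS3 at −0.29 for VHD and −0.50 for HD, PLOD2 at 0.31 for VHD and 0.38 for HD, and OGDH at −0.20 for VHD and −0.22 for HD. Tested directly, VHD minus HD gave 0 called genes (0%; smallest adjusted p 0.999) and 417 at an unadjusted p under 0.05 (3.22%).

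Library numbers moved with the result as well. When libraries were also grouped by number, 8 to a set, the count at an unadjusted p under 0.05 was 589 (4.55%; 2.21% higher and 2.34% lower), and 482 of these genes were among the 1556. The first set held 6 heavier and 2 lighter drinkers, so terms for the sets can also cost precision. A lower count is therefore not by itself a smaller difference, and the part of lost precision was not tested. Without the 8 lowest-numbered libraries, which leaves 7 heavier and 15 lighter drinkers, it was 1243 (9.61%; 5.37% higher and 4.24% lower), and 658 genes were shared. The count was 2357 without BD replicate 1, 1 of the 2 lighter animals among those 8 libraries. It was 1012 without BD replicate 6, the lone lighter animal of cohort 5, and 0 genes were called in either case. Drinking, cohort and library number overlap in this design, and their parts in the count cannot be told apart.

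**Figure D3:**
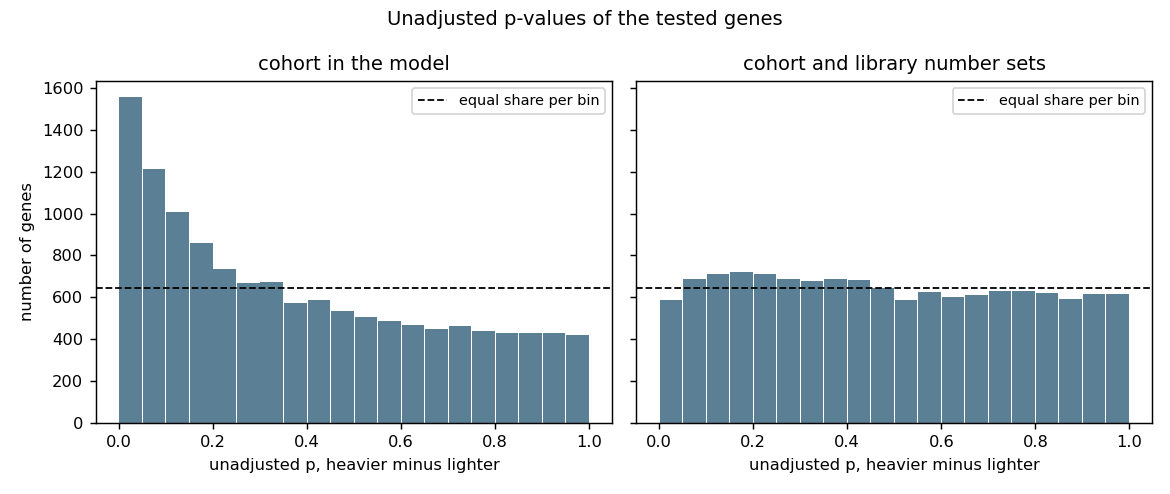
Number of genes (y axis) in 20 equal bins of unadjusted p (x axis) for heavier minus lighter drinkers, with cohort alone (left) or cohort and library number sets (right) in the model; dashed lines mark equal shares per bin. The lowest bin holds 1556 genes on the left and 589 on the right.

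Mural and fibroblast markers, the genes of smooth muscle cells, pericytes and the fibroblasts of meninges and vessel walls, were the list that stood lowest in heavier drinkers. Of 29 tested members 28 were below 0, 14 were lower at an unadjusted p under 0.05 (48.3%, against 5.84% of all tested genes) and 0 were higher. Their median was −0.47, against −0.0041 over all tested genes, and 0 members passed the test. COL1A1, a chain of fibrillar collagen I, had 32.5 to 529.8 normalized reads (median 173) in heavier drinkers, against 74.2 to 738 (median 227) in lighter drinkers, a difference of −1.15 ± 0.37. CNN1, the smooth muscle calponin, had 1.38 to 38.3 normalized reads (median 6.601) in heavier drinkers, against 2.07 to 152 (median 15.9) in lighter drinkers (−1.41 ± 0.50). COL1A1 was at −0.70 without HD replicate 3, at 0.0082 in cohort 5 alone and at −3.28 in cohort 7b alone. The ranges overlapped for both genes, with 8 of 13 heavier drinkers below the lighter median for COL1A1 and 11 for CNN1.

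SLC6A13, a GABA and taurine transporter of leptomeningeal cells, had 54.1 to 284 normalized reads (median 115) in heavier drinkers, against 83.5 to 325 (median 143) in lighter drinkers (−0.77 ± 0.26). IGF2, a growth factor gene that meninges express strongly in adult brain, had 118 to 729 normalized reads (median 229) in heavier drinkers, against 151 to 765 (median 391) in lighter drinkers (−0.77 ± 0.27). Contractile and collagen genes beyond those 4, picked after their values were seen, were also among the 14: MYH11 was at −1.04 ± 0.39, ACTA2 at −0.73 ± 0.30 and COL3A1 at −0.78 ± 0.28. All 43 measured exons of COL3A1 and all 28 of MYH11 were lower in heavier drinkers. Also picked after their values were seen, the pericyte genes RGS5 (0.01 ± 0.08), KCNJ8 (−0.01 ± 0.25) and ABCC9 (−0.15 ± 0.12) and the shared receptor gene PDGFRB (−0.19 ± 0.10) had smaller differences, none at an unadjusted p under 0.05.

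Summed over the listed genes, the level was 5466 to 16914 normalized reads (median 7831) in heavier drinkers and 6974 to 15279 (median 10869) in lighter drinkers, so the ranges overlapped. The highest sum of all 30 belonged to HD replicate 5 and the 2 lowest to other HD animals. By category the median sum was 11152 in VHD, 7000 in HD, 11215 in BD and 10813 in LD. Among the 8 lowest library numbers it was 7215 in 6 heavier drinkers and 11984 in 2 lighter ones, while among the other numbers it was 10753 in 7 heavier and 10757 in 15 lighter drinkers. Those 6 heavier drinkers were HD animals (numbers 2, 3, 6 and 7) and VHD animals (1 and 5), so the splits by category and by library number share animals.

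The list median was thus uneven over the design. It was −0.49 in cohort 4, −0.28 in cohort 5, −0.21 in cohort 7a and −1.06 in cohort 7b. For VHD against the lighter drinkers it was −0.013 with 0 of 29 members at an unadjusted p under 0.05, and for HD it was −0.76 with 18 members lower, in a comparison added after the data were seen. Over all tested genes 1.75% were lower for VHD and 6.64% for HD. COL1A1 was at 0.02 for VHD and −1.54 for HD. No VHD animal came from cohort 4 or 7b, where the list median was lowest. The VHD values therefore rest on cohorts 5 and 7a, and the HD values on all 4 cohorts. VHD minus HD itself had a list median of 0.36, with 7 members higher and 1 lower at an unadjusted p under 0.05 and 0 called. Of all tested genes 3.22% reached that level in either direction. With library number sets in the model 9 members were lower at that level with a median of −0.36, and without libraries 1 to 8 there were 3 with a median of −0.28. Without HD replicate 3, the lone heavier animal of cohort 7b, there were 3 with a median of −0.31, and without HD replicate 7, the lone heavier animal of cohort 4, 9 with −0.46. HD replicate 3 has library number 6, so it is also missing when libraries 1 to 8 are left out. Those settings are therefore not separate checks, and the part of library number and the part of this animal cannot be told apart.

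**Figure D4:**
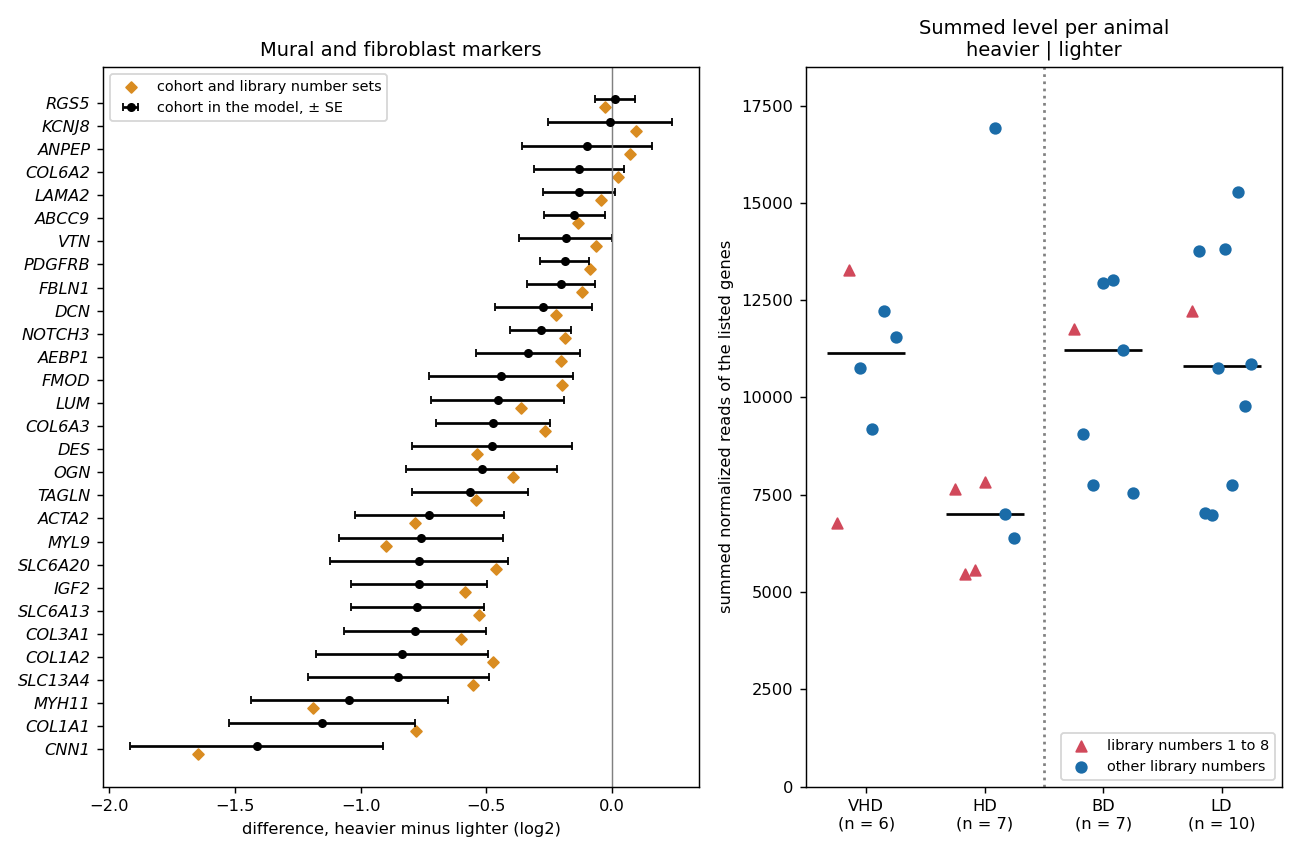
Left, difference between heavier and lighter drinkers (x axis, log2) for the 29 mural and fibroblast markers, as estimates with SE bars and, as diamonds, with library number sets in the model; right, summed normalized reads of the list per animal (y axis) in VHD, HD, BD and LD, with triangles for library numbers 1 to 8 and bars for medians. In the left panel 28 of 29 estimates are below 0, and in the right panel 6 of 7 HD animals lie at or below 7831 and the other at 16914.

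The other lists are to be read against all tested genes, of which 6.19% were higher and 5.84% lower at an unadjusted p under 0.05. Without the cohort term these shares were 9.54% higher and 8.71% lower, with library number sets 2.21% higher and 2.34% lower, and without libraries 1 to 8 5.37% higher and 4.24% lower. Of 21 endothelial genes 3 were lower and 0 higher at an unadjusted p under 0.05, with a median of −0.091. Without the cohort term 1 was lower and 4 higher, and with library number sets 1 was lower with a median of −0.027. CD93, a receptor of endothelial adhesion, had 44.3 to 145 normalized reads (median 64.3) in heavier drinkers, against 40.6 to 163 (median 89.4) in lighter drinkers (−0.56 ± 0.18). TIE1 and KDR, receptors of vessel growth, were at −0.39 ± 0.15 and −0.42 ± 0.20, while FLT1, a related receptor, was at 0.14 ± 0.09. Of 26 microglia and macrophage genes 3 were lower and 0 higher (median −0.11). They were CD68, a lysosomal protein of phagocytes, at −0.52 ± 0.16, the growth factor receptor gene CSF1R at −0.28 ± 0.09, and the transcription factor gene SPI1 at −0.43 ± 0.20, each with 10 or 11 of 13 heavier drinkers below the lighter median. CSF1R was at −0.19 without HD replicate 3. With library number sets 2 microglia and macrophage genes were lower and 0 higher, with a median of −0.059. Without libraries 1 to 8 1 was lower and 1 higher, with a median of −0.035, and without the cohort term 3 were lower and 1 higher. The 7 tested choroid and ependymal genes had a median of −0.20 and none at an unadjusted p under 0.05.

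Astrocytes clear glutamate and line the vessels. Of 25 astrocyte genes 6 were lower and 1 higher at an unadjusted p under 0.05, and the median was −0.053, against 5.84% lower and 6.19% higher over all tested genes. MLC1, a membrane protein of astrocyte endfeet, had 1038 to 2018 normalized reads (median 1329) in heavier drinkers, against 1314 to 1898 (median 1671) in lighter drinkers (−0.32 ± 0.10). The growth factor receptor gene FGFR3 was at −0.27 ± 0.11, while SLCO1C1, which carries thyroid hormone into the brain, was higher at 0.32 ± 0.12. GFAP, the filament of astrocytes, was at −0.24 ± 0.13, and SLC1A2, the main glutamate transporter, at 0.0013 ± 0.05, a sign that turned with TMM scaling. With library number sets 2 members were lower, and without libraries 1 to 8 the list had 1 lower member, 1 higher member and a median of 0.035.

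Oligodendrocytes wrap axons in myelin. Of 28 myelin genes 25 were below 0 in heavier drinkers, but only CNDP1, a dipeptidase, was lower at an unadjusted p under 0.05 (−0.62 ± 0.28), and the median was −0.092. The summed level was 6297 to 17400 normalized reads in heavier and 6446 to 28804 in lighter drinkers. For VHD against the lighter drinkers the median was 0.17 and for HD it was −0.14. By cohort it was −0.39 in cohort 4, 0.52 in cohort 5, −0.27 in cohort 7a and −0.11 in cohort 7b. In VHD minus HD all 28 members were above 0 with a median of 0.47, 8 were higher at an unadjusted p under 0.05 (against 3.22% of all tested genes in either direction), and 0 passed. The 14 precursor genes had a median of 0.013 with none at an unadjusted p under 0.05.

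GABA-A and glycine receptors are chloride channels on which ethanol acts, and their genes were the list that stood highest in heavier drinkers. Of 16 tested subunits 13 were above 0, 4 were higher at an unadjusted p under 0.05 (6.19% of all tested genes were), 0 were lower, and the median was 0.14. GABRA2, an alpha subunit, had 1126 to 1753 normalized reads (median 1539) in heavier drinkers, against 1156 to 1596 (median 1342) in lighter drinkers, and 11 of 13 heavier drinkers were above the lighter median (0.13 ± 0.06). GABRA4, another alpha subunit, was at 0.16 ± 0.08 with 10 of 13 above, and the glycine receptor subunit gene GLRA2 was at 0.33 ± 0.15 with 9 of 13 above. No subunit passed the test. With library number sets in the model 1 subunit was higher at an unadjusted p under 0.05 and the median was 0.076.

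Other transmitter genes lay on both sides of 0. Of 21 glutamate receptor genes 3 were higher and 2 lower at an unadjusted p under 0.05. The AMPA subunit genes GRIA2 and GRIA3 were at 0.11 ± 0.05 and 0.10 ± 0.05, the presynaptic metabotropic receptor gene GRM2 at −0.25 ± 0.11 (−0.16 without HD replicate 7), and the NMDA subunit gene GRIN2C at −0.27 ± 0.13. In the model with library number sets 0 members were higher and 0 lower. Of 41 monoamine, acetylcholine and cannabinoid receptor genes 2 were higher and 4 lower. CHRNA2, a nicotinic subunit of some interneurons, had 19.8 to 102 normalized reads (median 43.3) in heavier drinkers, against 26.9 to 101 (median 62.3) in lighter drinkers (−0.68 ± 0.20), and HTR3A, the ion channel type of serotonin receptor, was at −1.11 ± 0.43 with a median of 17.96 normalized reads in heavier and 40.5 in lighter drinkers. The histamine receptor gene HRH2 was at −0.29 ± 0.11 and the serotonin receptor gene HTR7 at 0.41 ± 0.17. Of 38 neuropeptide and receptor genes 0 were at an unadjusted p under 0.05 in either direction, and without libraries 1 to 8 4 were higher with a median of 0.083.

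Among 24 excitatory genes 3 were higher, the transcription factor genes ETV1 (0.24 ± 0.08) and BCL11B (0.25 ± 0.09) of deep layers and NR4A2 (0.44 ± 0.21), and 0 lower, with a median of 0.031. NR4A2 was at −0.23 in cohort 7a alone and at 0.21 without BD replicate 6, and 0 members were higher without the cohort term. Among 31 inhibitory genes 2 were lower, HTR3A among them, and 0 higher, with a median of −0.047. Of 37 immediate early genes, which activity induces, 4 were higher and 0 lower. These were the nuclear receptor genes NR4A3 (0.40 ± 0.14; a median of 358 normalized reads in heavier and 284 in lighter drinkers) and NR4A2, the scaffold gene HOMER1 (0.15 ± 0.06) and the growth factor gene BDNF (0.29 ± 0.13). Without libraries 1 to 8 the same number was higher and the median was 0.11, against 0.034 with them.

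Of 39 vesicle release genes 2 were higher and 5 lower at an unadjusted p under 0.05. The calcium sensor gene SYT1 had 16982 to 21990 normalized reads (median 18990) in heavier drinkers, against 15105 to 21581 (median 17387) in lighter drinkers (0.14 ± 0.05, 12 of 13 above the lighter median). NAPB and NAPA, which encode the beta and alpha forms of a protein that takes fused SNARE complexes apart, stood on opposite sides at 0.18 ± 0.08 and −0.21 ± 0.07, and the active zone gene RIMS3 was at −0.12 ± 0.05. Of 29 postsynaptic genes 2 were higher and 2 lower, among them the scaffold gene DLGAP3 at −0.20 ± 0.09. Of 46 calcium and cAMP enzymes 4 were higher and 5 lower, with the protein kinase A subunit gene PRKACB at 0.18 ± 0.06, the calcineurin subunit gene PPP3R1 at 0.21 ± 0.09, CAMK2B at −0.15 ± 0.06 and the adenylyl cyclase gene ADCY3 at −0.18 ± 0.08. Only 1 of the 46 was higher and 0 lower with library number sets.

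Of 52 potassium channel genes 2 were higher and 2 lower, with KCNK1 at 0.16 ± 0.06 and KCND1 at −0.27 ± 0.11. Of 18 calcium and sodium channel genes 2 were lower and 0 higher: CACNA1G, a T-type calcium channel, had 855 to 1478 normalized reads (median 1209) in heavier drinkers, against 919 to 1941 (median 1412) in lighter drinkers (−0.33 ± 0.12). Of 54 axon guidance and cytoskeleton genes 4 were higher and 3 lower. NTN1, the guidance cue netrin, had 36.3 to 66.9 normalized reads (median 51.0) in heavier drinkers, against 51.6 to 95.2 (median 70.5) in lighter drinkers, so that all 13 heavier drinkers were below the lighter median (−0.43 ± 0.12). The microtubule genes MAP4, MAP2 and STMN1 were higher at 0.20 ± 0.07, 0.15 ± 0.06 and 0.15 ± 0.06. Of 51 primary cilium genes 6 were higher and 3 lower, among them the ciliary motor gene KIF3A at 0.15 ± 0.06, and with library number sets 1 was higher and 0 lower.

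Of 41 citric acid cycle and glycolysis genes 7 were lower and 1 higher at an unadjusted p under 0.05 (17.1%, against 5.84% of all tested genes lower), with a median of −0.05. Beside OGDH, the citrate synthase gene CS had 1589 to 1823 normalized reads (median 1758) in heavier drinkers, against 1637 to 2019.5 (median 1828) in lighter drinkers, and all 13 heavier drinkers were below the lighter median (−0.12 ± 0.04). IDH2, the mitochondrial isocitrate dehydrogenase, was at −0.18 ± 0.06 and PC, which carboxylates pyruvate to refill the cycle, at −0.24 ± 0.09. With library number sets in the model 3 members were lower and the median was 0.012. Of 71 oxidative phosphorylation genes 3 were higher and 6 lower, a balance that turned without the cohort term, where 16 were higher and 2 lower and 55 of 71 were above 0. Subunits of complex I lay on both sides, with NDUFB5 at 0.21 ± 0.08 and NDUFB6 at 0.21 ± 0.09 but NDUFB7 at −0.25 ± 0.09 and NDUFA10 at −0.14 ± 0.05.

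Of 52 genes of histone and DNA modifying enzymes 39 were below 0, 7 were lower and 2 higher at an unadjusted p under 0.05, and the median was −0.045. KAT2A, a histone acetyltransferase, had 1077 to 1863 normalized reads (median 1414) in heavier drinkers, against 1423 to 2502 (median 1916) in lighter drinkers. All 13 heavier drinkers were below the lighter median for KAT2A, and the difference was −0.28 ± 0.09 with cohort and −0.40 without it (adjusted p = 0.390 and 0.0215, limma). HDAC10, a deacetylase, was at −0.32 ± 0.12, the arginine methyltransferase gene PRMT1 at −0.25 ± 0.09, and the histone demethylase gene KDM5C at −0.14 ± 0.05. The list had 4 lower members with library number sets, 9 without libraries 1 to 8 and 13 without the cohort term.

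Of 26 perineuronal net and protease genes 2 were higher and 4 lower: the gelatinase gene MMP2 was at −0.69 ± 0.21 and the protease inhibitor gene TIMP3 at −0.17 ± 0.07, whereas the membrane protease gene MMP16 was at 0.19 ± 0.06 and SERPINI1, an inhibitor secreted by neurons, at 0.25 ± 0.09. Of 51 lysosomal genes 2 were higher and 4 lower, with the peptidase gene TPP1 at −0.20 ± 0.07, GRN at −0.23 ± 0.10 and the lysosomal transcription factor gene TFEB at −0.35 ± 0.15. Of 25 cholesterol synthesis genes 1 was higher and 2 lower, the lower ones being the pathway regulators SCAP and SREBF1 at −0.17 ± 0.08 and −0.29 ± 0.14.

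Of 57 splicing factor genes 41 were above 0, 4 were higher (7.02%, against 6.19% of all tested genes) and 0 lower, among them SNRPB2 at 0.22 ± 0.08 and the neuronal splicing regulator PTBP2 at 0.17 ± 0.07. The median was 0.059. With library number sets 0 were higher and 1 lower with a median of 0.0077, and without the cohort term 10 were higher. Of 49 heat shock and chaperone genes 4 were higher (8.16%, against 6.19% of all tested genes) and 0 lower, with HSPA13 at 0.23 ± 0.10 and the heat shock factor gene HSF2 at 0.17 ± 0.08. Against the lighter drinkers 0 of these genes were higher and 1 lower for VHD, and 13 were higher and 0 lower for HD. Over all tested genes 1.96% were higher and 1.75% lower for VHD, and 5.98% higher and 6.64% lower for HD. In VHD minus HD 1 of the 49 chaperone genes was higher and 4 were lower, against 3.22% of all tested genes in either direction, and 12 of 49 were above 0. The count without the cohort term was 10 higher and 2 lower. Of 74 ribosomal protein genes 5 were higher and 3 lower, from RPS20 at 0.21 ± 0.08 (0.14 without HD replicate 7) to RPL37 at −0.20 ± 0.08. Without the cohort term 21 were higher and 1 lower, and with library number sets 0 were higher and 2 lower. Ethanol metabolism had 1 lower gene of 12, ACSS1, which activates acetate in mitochondria, at −0.24 ± 0.10 (−0.15 without HD replicate 7). The glucocorticoid list had 2 lower of 25, the mineralocorticoid receptor gene NR3C2 at −0.14 ± 0.07 and ZBTB16 at −0.18 ± 0.09. The interferon and innate immune list had 1 higher, HMGB1 at 0.18 ± 0.07, and 1 lower of 36, TNFRSF1A at −0.28 ± 0.12, and the circadian list 1 lower of 19, TEF at −0.16 ± 0.07.

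**Figure D5:**
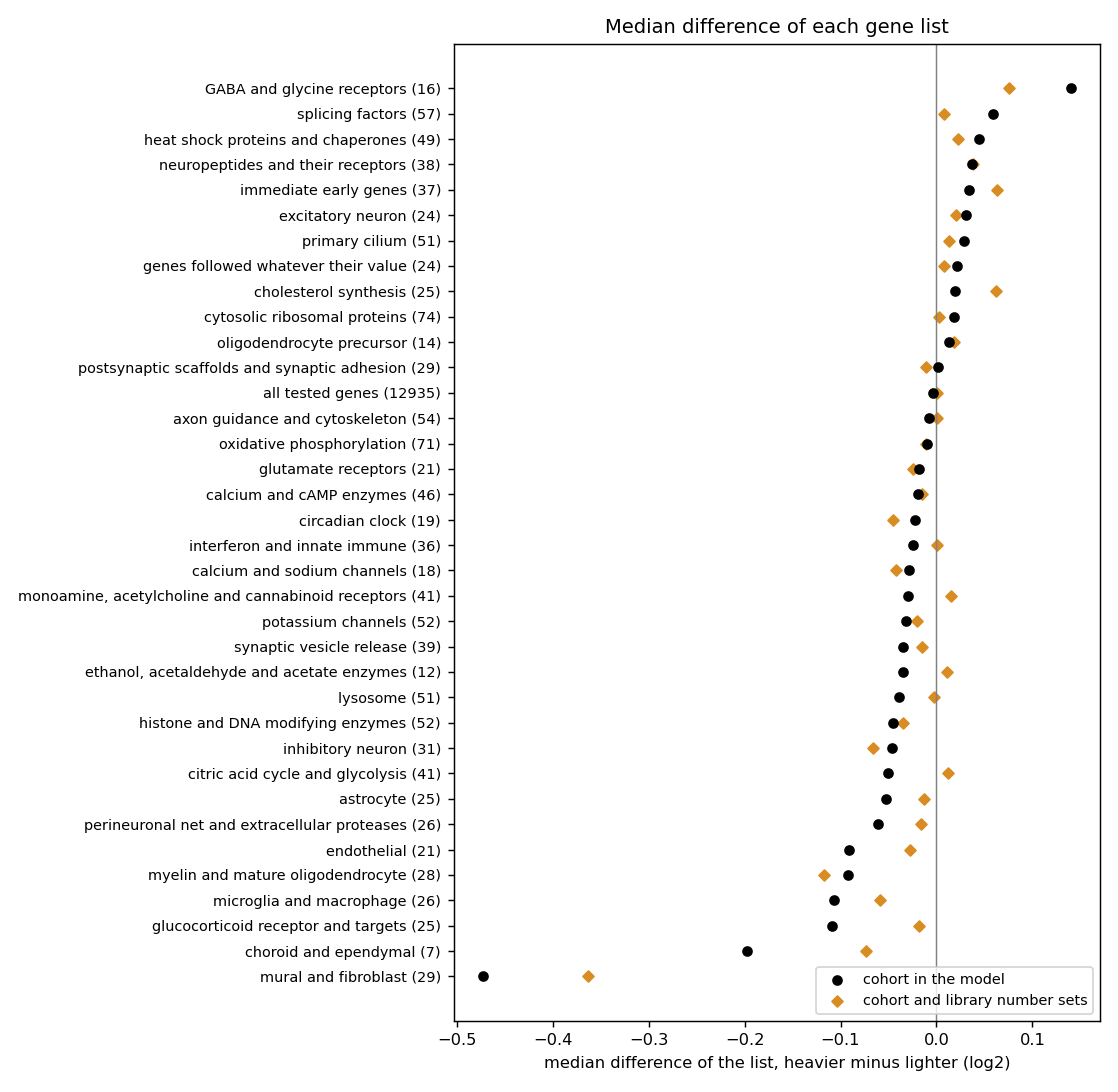
Median difference between heavier and lighter drinkers (x axis, log2) of each gene list, with the number of tested genes in parentheses; dots are from the model with cohort and diamonds from the model with cohort and library number sets. The mural and fibroblast list is lowest at −0.47 and the GABA and glycine receptor list highest at 0.14, and both medians are nearer 0 with library number sets.

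Some genes linked with alcohol in other work were described whatever their p. LIPA and AGA, which encode lysosomal hydrolases, were higher at an unadjusted p under 0.05: LIPA had 167 to 242 normalized reads (median 226) in heavier drinkers, against 144 to 302 (median 181) in lighter drinkers (0.27 ± 0.11), and AGA was at 0.34 ± 0.15 with a median of 135 normalized reads in heavier and 116 in lighter drinkers. The acetaldehyde dehydrogenase gene ALDH2 was at 0.11 ± 0.07. Among stress and peptide genes NPY was at 0.20 ± 0.19, PDYN at 0.12 ± 0.12, SST at 0.08 ± 0.15 and CRH at −0.03 ± 0.13, NR3C1, the receptor for cortisol, at 0.06 ± 0.07, and FKBP5, which binds that receptor, at 0.03 ± 0.19. The signs of PDYN, SST, CRH and FKBP5 turned without the cohort term, as did those of GAD1, KCNMA1 and DPF3.

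GRIN2B, an NMDA subunit, was at −0.03 ± 0.05, KCNMA1, the BK potassium channel, at 0.02 ± 0.05, GAD1, which makes GABA, at −0.04 ± 0.06 and the myelin gene MBP at −0.09 ± 0.17. Of genes named in studies of alcohol drinking, LMO3 was at 0.16 ± 0.09, PRKCE at 0.07 ± 0.04, PPM1G at −0.09 ± 0.05, NF1 at 0.05 ± 0.04 and DPF3 at −0.07 ± 0.14. Of the 24 genes followed in all, 3 were higher (BDNF, LIPA, AGA) and 3 lower (GLIS3, CS, NAPA) at an unadjusted p under 0.05, and none passed the test. These are 12.5% on each side, against 6.19% higher and 5.84% lower of all tested genes. The followed genes were chosen with earlier results of these data known, and GLIS3 is also among the 12 lower genes above, so the counts are no independent support.

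Some genes passed only under an alternative. When the cohort term was dropped, 4 of the 5 called genes were lower, GLIS3 (−0.44), KAT2A (−0.40), GPAT2 (−0.65) and RFX2 (−0.44), with adjusted p from 0.0215 to 0.0469 in limma. With libraries weighted, TLN1 was at −0.29, PGAP1 at 0.34, KIF1C at −0.24, AFAP1L1 at −0.42, AP3S1 at 0.37, LGI4, a Schwann and glial ligand gene, at −0.32, the endoplasmic reticulum oxidase gene ERO1LB at 0.31 and the elongation factor gene ELL2 at 0.28 (adjusted p = 0.0324 for each, limma). In the unweighted fit with cohort the last 3 were at −0.26 ± 0.07, 0.26 ± 0.07 and 0.24 ± 0.07, each with an adjusted p of 0.390.

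Within each side of the comparison the categories were not separated either. In VHD against HD the chromatin reader gene CDYL was at 8.996 ± 0.13 in VHD and 8.64 ± 0.12 in HD (mean ± SD of log2 normalized reads, n = 6 and 7), a limma difference of 0.31 ± 0.08. The matrix gene TNXB was at 8.98 ± 0.19 in VHD and 8.43 ± 0.34 in HD (0.59 ± 0.15). PARP15 was at 3.47 ± 0.75 in VHD and 1.87 ± 0.72 in HD (1.67 ± 0.45), levels of few reads. On the other side the synaptic protease gene PRSS12 was at 7.40 ± 0.42 in VHD and 8.08 ± 0.35 in HD (−0.67 ± 0.20), SLFN5 at −0.38 ± 0.12 and the chaperone gene HSPA4 at −0.20 ± 0.06. None passed, each with an adjusted p of 0.999.

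In BD against LD 0 genes were called (0%; smallest adjusted p 0.999) and 394 had an unadjusted p under 0.05 (3.05%). HMGN1, a nucleosome-binding protein gene, was at 7.80 ± 0.27 in BD and 7.37 ± 0.29 in LD (n = 7 and 10), a difference of 0.44 ± 0.12. TMEM18 was at 0.41 ± 0.12 and the somatostatin receptor gene SSTR4 at 0.86 ± 0.25. GPR1 was at −1.12 ± 0.29, the galactokinase gene GALK1 at −0.71 ± 0.20 and TARBP2, a partner of Dicer, at −0.43 ± 0.12.

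Exon usage was compared as each exon's log2 level minus the log2 of the summed other tested exons of its gene. Of 104340 exons in 10203 genes 0 passed at an adjusted p under 0.05 (0%; smallest 0.729), and 6697 had an unadjusted p under 0.05 (6.42%). The exon of PTPN11, a tyrosine phosphatase of growth factor signalling, named chr12:111892191-111892287 in the file (97 bases), had 30.0 to 117 normalized reads (median 67.0) in heavier drinkers and 14.3 to 82.5 (median 28.7) in lighter drinkers. The PTPN11 gene itself had medians of 1749 in heavier and 1692 in lighter drinkers, and the relative difference of the exon was 1.22 ± 0.26. An exon of NOC3L, a ribosome assembly gene, had medians of 15.5 normalized reads in heavier and 6.01 in lighter drinkers (1.19 ± 0.24), and an exon of the scaffold gene MPP6 had 54.3 in heavier and 33.97 in lighter drinkers (0.70 ± 0.15). Exons of PBLD (−0.83 ± 0.17) and of MATN2 (−0.65 ± 0.14), a matrix protein gene, were relatively lower.

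With diffSplice, which shares 1 variance over the exons of a gene, 151 of 10203 genes passed (1.48%), and PTPN11 was among them (adjusted p = 2.12e-08). PSD, ATP6V1D, MCCC1 and MYH10, the other four of the 5 smallest p, had adjusted p from 1.13e-08 to 4.85e-08 in limma. That test asks whether any exon of a gene differs, and its count was not matched by the exon-by-exon test. It counts exons of the same animal as if separate, so its p-values do not measure the spread between animals alone.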

How the data were processed

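RNA from area 32 of 30 male macaques was depleted of ribosomal RNA and sequenced with a strand-keeping kit, per the labels' protocols. CASAVA, FastQC, STAR 2.3.0e and edgeR appear in the submitters' processing notes, while no source used here names the genome build, the annotation or the counting program (each is not given). The deposited tables hold a signal per gene and per exon, named normalized reads here, whose values step as whole read counts divided by 1 factor per library. Division by the step between low values returned whole reads for 100% of values within 0.01, which gave the depths and the counts used by edgeR and DESeq2. Strand use in counting is not given, so reads of overlapping or antisense genes cannot be told apart.

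Gene values were compared as log2(value + 1) in limma 3.58.1 (R 4.3.3), with cohort as a term, over 12935 of 15521 genes, those reaching 10 normalized reads in 6 or more libraries. The p-values were Benjamini-Hochberg adjusted over all tested genes, and fold changes of low genes are understated by the added 1. Each p-value sets a difference against the spread between animals, except those of diffSplice, which counts exons of the same animal as if separate. The 12 genes with the smallest p in each direction, up to 4 members of each list, a set of followed genes, 3 genes in each direction for contrasts between categories, 5 exons and up to 10 genes called under an alternative were named. Some genes under this rule are not reported here. Other genes named in the text were chosen after their values were seen. The categories, gene lists and tests were chosen with earlier results of these data known. Exon usage was the log2 exon level minus the log2 of the summed other tested exons of its gene. The log2 exon levels were also tested with diffSplice. Exon positions are as the file names them, on a build that is not given. Alternatives used edgeR 4.0.16 and DESeq2 1.42.0, other scalings, filters, terms and left-out libraries or categories. Leaving out VHD or HD for the lists, and each library for the mural list, was added after the data were seen.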

Additional observations from a re-analysis of the deposited data

Results flagged for a closer look

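Of 32 groups of libraries examined for a single value apart from the rest, 2 held one, and chance alone marks about 1 group in 20. HMGN1 had 150.12 normalized reads in BD replicate 7, against 215 in the next lowest of the 7 BD animals, and BD minus LD for HMGN1 was 0.44. The summed mural and fibroblast reads were 16914 in HD replicate 5, against 7831 in the next highest of the 7 HD animals. Without HD replicate 5 the list median of heavier minus lighter drinkers was −0.50, with 17 of 29 members lower at an unadjusted p under 0.05.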

How the results depend on the processing

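No paired analysis was possible because the labels give no replicate numbers that the groups share, and numbers here only name animals. The count of 0 called genes was also given by other pseudocounts, filters and scalings, a depth term, edgeR and DESeq2. It was 5 with no cohort term and 130 with array weights, and diffSplice called 151 genes for exon usage. The 1556 genes at an unadjusted p under 0.05 became 2360 with no cohort term, 589 with library number sets, 3212 with array weights, 1023 without the shallowest libraries, 480 with HD left out and 410 in cohort 7a alone. Leaving out 1 library gave 1012 (BD replicate 6) to 2357 (BD replicate 1). Some differences changed sign. With no cohort term the values were PDYN at −0.031, SST at −0.027, GAD1 at 0.011, DPF3 at 0.0063, KCNMA1 at −0.0091, CRH at 0.041 and FKBP5 at −0.0080. With HD left out they were MBP at 0.083, SST at −0.094, KCNMA1 at −0.033, CRH at 0.041, FKBP5 at −0.37 and COL1A1 at 0.022. With BD left out they were GRIN2B at 0.0086, DPF3 at 0.092 and SLC1A2 at −0.017. Without libraries 1 to 8 they were GAD1 at 0.0068, KCNMA1 at −0.019 and CRH at 0.075. KCNMA1 was at −0.025 with library number sets and CRH at 0.041 with array weights. SLC1A2 was at −0.0024 with TMM factors, −0.014 without the shallowest libraries and −0.0088 with VHD left out. Over single libraries left out, GAD1 ran from −0.10 to 0.0065, MBP ran from −0.26 to 0.039, DPF3 ran from −0.18 to 0.068, KCNMA1 ran from −0.019 to 0.042, CRH ran from −0.093 to 0.081, FKBP5 ran from −0.16 to 0.13 and SLC1A2 ran from −0.021 to 0.021. The cause of these changes was not tested.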
